A study of Mus musculus with 3 samples.

Results

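The C/EBP factors Cebpa, Cebpb, Cebpd and Cebpe and the regulators Gfi1, Runx1, Klf4, Irf4, Myb and Myc were read out in 3 mouse acute myeloid leukemias that lack miR-196b. These 10 genes were chosen by symbol, as regulators of myeloid fate, out of 28074 gene symbols in the deposited table, and each had 1 row there. In the normal bone marrow, Runx1 and Myb sustain progenitors, Cebpa starts the granulocyte and monocyte program, and Gfi1 and Cebpe carry granulocytes toward maturity. Klf4 drives monocyte differentiation, Irf4 acts in dendritic, macrophage and B-lineage cells, and Cebpb and Cebpd come up with inflammation and terminal differentiation. Myc drives growth and division, and its fall accompanies maturation. Acute myeloid leukemia is a block in this sequence, so the levels of these factors are commonly read as a guide to where along it the leukemic cells stand.

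All 3 leukemias had the genotype miR196b-/-Dnmt3afl/fl,Flt3ITD/ITD,Mx1Cre, from separate mice. Mx1-Cre is a recombinase under an interferon-inducible promoter that is active in blood cells and in other tissues, and the Flt3-ITD allele encodes a growth factor receptor that signals without its ligand. The sample titles write Dnmt3a+/- where the genotype entry writes fl/fl, and no age was given. Cells came from the spleens of moribund mice, were freed of red cells and were enriched for the receptor c-Kit with CD117 magnetic beads. Leukemias with intact miR-196b fill another 3 columns but belong to a separate series. They were left aside, so no genotype difference was computed. All values below are levels and differences among mice 1, 2 and 3, whose numbers only name them.

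The values are TPM, transcript abundances scaled for transcript length and to a common library total, so levels of different genes can be set side by side. The 3 columns summed to between 927169 and 929731 TPM, and the depth behind them is unknown, since TPM keep no read numbers. No row for miR-196b was analysed here, and its deletion was not checked. Kit, the gene of the enrichment marker, lay between 133 and 149 TPM, Flt3 between 106 and 157 TPM and Dnmt3a between 52.2 and 64.9 TPM, which does not separate mutant from intact alleles. Of the lists of other cell types, the median level on the log2(TPM + 1) scale was 1.35 for 7 B cell markers, 0.79 for 5 plasma cell markers and 2.50 for 8 T and NK cell markers. It was 2.46 for 6 mast cell and basophil markers, 3.14 for 5 erythroid markers, 4.21 for 7 stem and progenitor markers and 6.16 for 8 dendritic cell markers. These are bulk samples, in which fewer cells of a type and less RNA per cell cannot be told apart.

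The deleted microRNA and its close relative miR-196a are shown because both carry the same seed, the bases 2 to 8 that pair with a target and are in capitals here. Sequences are those of RefSeq on GRCm38.p6, where miR-196b-5p lies at chr6:52230129-52230150 on the minus strand, and miR-196a-5p comes from chr11:96265187-96265208 and chr15:102973365-102973386, both on the plus strand.
miR-196b-5p: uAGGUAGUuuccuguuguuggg
miR-196a-5p: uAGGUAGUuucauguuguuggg
A target site is the reverse complement of the seed, or of bases 2 to 7 followed by A, and both forms were searched for in the longest 3′ UTR of each coding gene in GENCODE M21 (GRCm38). As a check, the search was run on 7 genes reported as targets of this family: Hoxa7, Hoxa9, Hoxc8, Hmga2 and Cdkn1b held at least 1 site, and Hoxb8 and Anxa1 held 0. Hoxa9 held 2. Its site at chr6:52223901-52223907, with the match in capitals, shows what was looked for.
Hoxa9 site: aaggaaagaaaACTACCTttttatataatg

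None of the 10 factors held such a site (0 of 10), against 10.4% of 21045 3′ UTRs and 11.4% of those of expressed genes. Their 3′ UTRs ran from 179 nt in Cebpe to 4189 nt in Runx1. Among 3′ UTRs within 20% of the length of that of Runx1, 29.6% held a site, and 22.6% did near the length of that of Irf4. For Cebpe the share was 0.80%. The share near the length of Runx1 was the highest for any of the 10 factors. For each factor, a missing site is thus what most 3′ UTRs of like length show. Whether 0 of 10 is fewer than these shares would give was not tested. The search found no site in 2 of the 7 check genes, covers these letters in these windows only, and says nothing of sites elsewhere in the transcripts.

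All 10 factors were expressed. Each reached at least 1 TPM in every mouse, as did 50.7% of all listed genes. All but Irf4 exceeded 10 TPM in every mouse, a level for which no share of all genes was computed. On the log2(TPM + 1) scale the median of the 10 mean levels was 5.11, against 4.18 over 15181 expressed genes, which are those with a mean of at least 1 TPM. Their mean levels spanned 32.3-fold. Myc stood highest at 195 ± 54.5 TPM (SD, n = 3), at rank 634 among the expressed genes, followed by Myb at 163 ± 35.4 TPM, Klf4 at 111 ± 46.2 TPM and Runx1 at 88.3 ± 9.71 TPM. Cebpa followed at 48.1 ± 13.7 TPM, Cebpe at 29.1 ± 23.4 TPM, Gfi1 at 24.9 ± 8.82 TPM, Cebpb at 20.7 ± 4.71 TPM and Cebpd at 19.9 ± 11.8 TPM. Irf4 was the lowest at 6.05 ± 2.50 TPM. Myc, Myb and Runx1, genes of progenitors, and Klf4, a gene of monocyte differentiation, thus stood above every C/EBP factor in level.

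Ranges over the 3 mice overlapped for 7 of the 9 pairs of neighbours in this order. The exceptions were Runx1 and Cebpa, where the lowest Runx1 value of 77.5 TPM lay above the highest Cebpa value of 63.5 TPM, and Cebpd and Irf4, where 11.1 TPM lay above 7.87 TPM. Both genes of a pair were measured in the same mice, and Gfi1 lay above Cebpb in each of the 3 although their ranges overlapped. Cut where neighbours did not overlap, the 10 factors fell into 3 tiers. These were Myc, Myb, Klf4 and Runx1, then Cebpa, Cebpe, Gfi1, Cebpb and Cebpd, then Irf4. Genes within a tier could still be apart: the lowest Cebpa value of 37.2 TPM lay above all values of Gfi1, Cebpb and Cebpd. Likewise the lowest Myc and Myb values, 160 and 124 TPM, lay above the highest Runx1 value of 96.3 TPM. Ranked by the median in place of the mean, 3 of the 10 kept their place, and the moves stayed within these tiers.

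**Figure D1:**
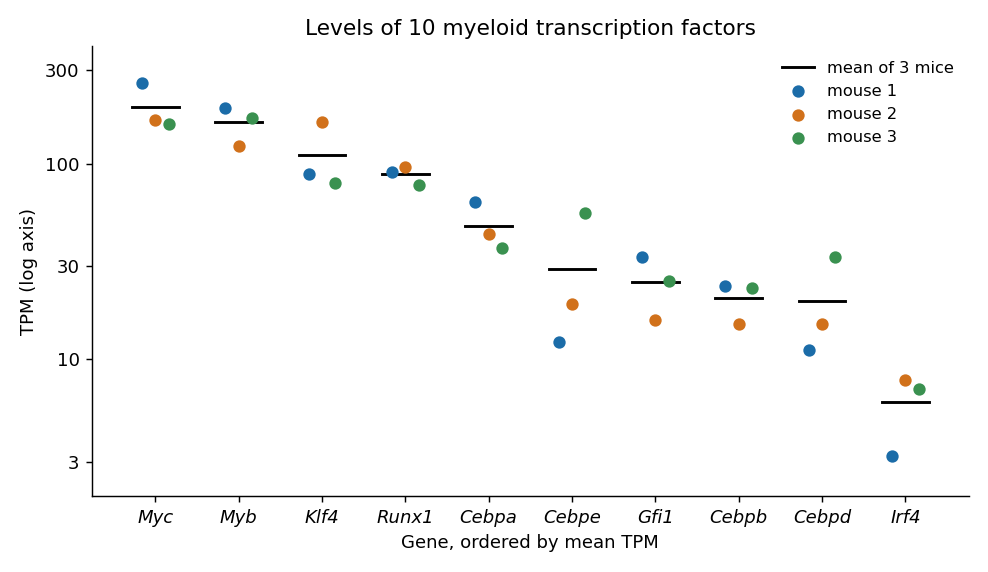
TPM of each factor (log axis) in mouse 1, mouse 2 and mouse 3, with a bar at the mean of the 3 mice and genes ordered by that mean. Myc, Myb, Klf4 and Runx1 lie above all 3 Cebpa points, Irf4 lies below all other factors, and the points of Cebpe are the most widely separated, from 12.3 to 55.8 TPM.

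The factors varied among these leukemias. At least a 2-fold difference between some pair of mice was found for 5 of the 10, Cebpe, Cebpd, Irf4, Gfi1 and Klf4, against 13.8% of expressed genes. By pair of mice this held for 2 factors between mice 1 and 2 (8.00% of expressed genes), for 3 between mice 1 and 3 (8.70%) and for 3 between mice 2 and 3 (5.54%). After scaling the libraries to a common upper quartile the count was 3, because Klf4 and Gfi1, at 2.06-fold and 2.11-fold, came to 1.99-fold and 1.98-fold. Each comparison sets 1 mouse against another, with no replicate behind it.

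The SD of log2(TPM + 1) over the 3 mice had a median of 0.45 for the factors and 0.21 for expressed genes. It was above the latter for 9 of the 10, against 50.0% of expressed genes by construction. The widest was Cebpe, with an SD of 1.08, at percentile 98.6 of expressed genes, then Cebpd with 0.77, at percentile 96.8. Irf4, Klf4 and Gfi1 had SDs of 0.59, 0.56 and 0.52, and Cebpa, Myc, Cebpb and Myb of 0.39, 0.38, 0.34 and 0.33. Runx1 was the steadiest factor, with an SD of 0.16, at percentile 35.4. The factors did not share 1 high mouse: 5 were highest in mouse 1 (48.6% of expressed genes), 3 in mouse 2 (31.1%) and 2 in mouse 3 (20.3%). After scaling these counts were 4, 3 and 3, since Cebpb passed from mouse 1 to mouse 3, against 35.6%, 33.9% and 30.4% of expressed genes.

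**Figure D2:**
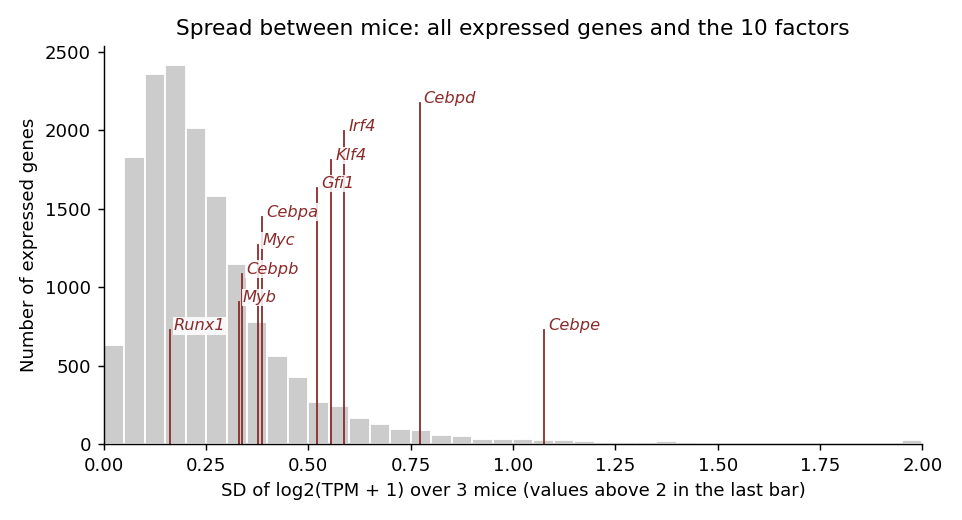
Number of expressed genes by the SD of log2(TPM + 1) over the 3 mice (grey bars, values above 2 in the last), with the SD of each of the 10 factors as a red line whose height has no meaning. Runx1 lies at 0.16, below the median of 0.21, and Cebpe lies far to the right at 1.08.

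The C/EBP factors are basic leucine zipper proteins that bind as pairs, also with each other, and all read the same DNA motif. Their transcript pool differed in make-up between the leukemias. Cebpa (chr7:35119293-35121928, plus strand, mm10), which opens the granulocyte and monocyte program, had 63.5, 43.7 and 37.2 TPM in mice 1, 2 and 3. Mouse 1 was the highest and mouse 3 the lowest, a 1.71-fold range, and without mouse 1 the SD of 0.39 was 0.16. Cebpb (chr2:167688915-167690418, plus strand), the factor of emergency granulopoiesis and of macrophages, had 23.6, 15.3 and 23.2 TPM, so mice 1 and 3 lay close together and mouse 2 was the low one. Without mouse 2 its SD of 0.34 was 0.018.

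Cebpd (chr16:15887286-15891031, plus strand), an acute phase gene of maturing and stimulated myeloid cells, had 11.1, 15.2 and 33.2 TPM. Cebpe (chr14:54710360-54712174, minus strand), which controls the secondary granules of neutrophils, had 12.3, 19.3 and 55.8 TPM. Both were highest in mouse 3 and lowest in mouse 1, by 2.98-fold and 4.52-fold, an order of mice shared by 9.93% of expressed genes (15.9% after scaling, under which both kept it). Mouse 3 stood apart for both: without it the SDs were 0.30 for Cebpd and 0.43 for Cebpe, against 0.77 and 1.08 with it. With 3 values, leaving out the one farthest from the others lowers the SD of any gene. Such drops only describe which mouse stood apart, here and for the other factors.

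Ratios of genes within a mouse do not depend on how libraries are scaled. Cebpe relative to Cebpa was 0.194 in mouse 1, 0.440 in mouse 2 and 1.5 in mouse 3, a 7.72-fold range. Cebpe was thus the minor transcript of the pair in mice 1 and 2 and the major one in mouse 3. The ratio of Cebpd to Cebpa went from 0.175 in mouse 1 to 0.893 in mouse 3, with 0.348 in mouse 2. Summed with Cebpg, a C/EBP protein that lacks an activation domain, the pool was 156, 143 and 184 TPM. Cebpa made up 40.7%, 30.5% and 20.2% of it, and Cebpe 7.91%, 13.4% and 30.3%. The sum varied less than the parts, and the leading transcript was Cebpa in mouse 1, Cebpg in mouse 2 and Cebpe in mouse 3.

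**Figure D3:**
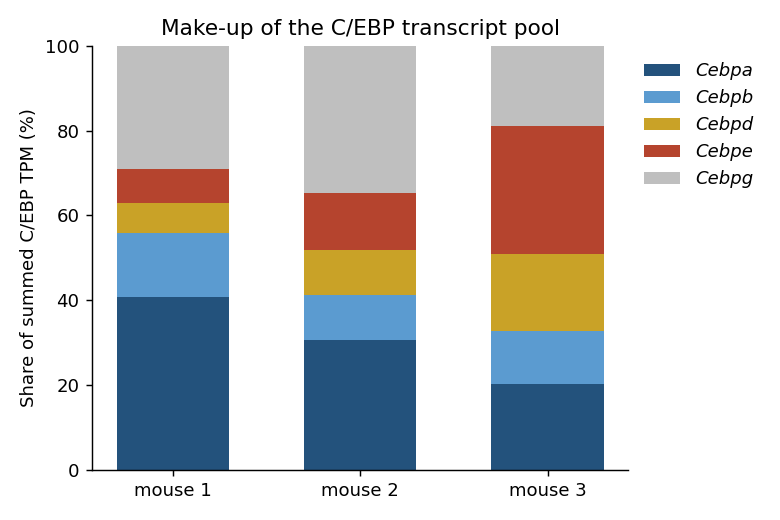
Share (%) of the summed TPM of Cebpa, Cebpb, Cebpd, Cebpe and Cebpg held by each gene in mouse 1, mouse 2 and mouse 3. The Cebpa share is 40.7% in mouse 1 and 20.2% in mouse 3, while the Cebpe share is 7.91% and 30.3%.

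Proteins that act on the C/EBP factors were expressed at unequal levels. Cebpg had 45.5, 49.7 and 34.8 TPM. Trib1, a scaffold that marks C/EBPα for destruction, had 49.1, 86.2 and 59.3 TPM, and Cop1, the ubiquitin ligase it recruits, had 24.9, 26.4 and 26.4 TPM. Cop1 was nearly level and Trib1 was highest in mouse 2. Trib1 exceeded Cebpa in mice 2 and 3, at 1.97 and 1.59 times its level, but not in mouse 1, at 0.774. Trib2, which can do the same and can cause leukemia in mice, was near the detection level, at 0.851, 0.627 and 2.63 TPM. All 5 genes of this list reached a mean of 1 TPM.

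Genes that C/EBP factors are known to activate were given by lists chosen with earlier results of these data known. The list for C/EBPε held 10 genes of maturing neutrophils, most of them for granule proteins. All 10 had the order of mice of Cebpe (9.93% of expressed genes, and 15.9% after scaling, where the count was again 10). All 10 also differed at least 2-fold between some pair of mice (13.8% of expressed genes). Ngp, a granule protein, had 438, 1193 and 3639 TPM, and Camp, the cathelicidin precursor, had 122, 417 and 1480.1 TPM. Both spanned more than Cebpe itself, at 8.31-fold and 12.2-fold. The same genes mark neutrophils as such: the list summed to 1163, 2914 and 8700 TPM in mice 1, 2 and 3, none was at 0, and the part of neutrophil number in the Cebpe values was not tested.

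Genes of the C/EBPα list were less uniform. Of 7 genes matched, 4 peaked in mouse 3 (20.3% of expressed genes), 2 in mouse 2 (31.1%) and 1 in mouse 1 (48.6%), where Cebpa did. The counts were the same after scaling, beside 30.4%, 33.9% and 35.6% of expressed genes. Mpo, the myeloperoxidase of primary granules, had 1081, 864 and 1632 TPM, and Ctsg, another primary granule enzyme, had 618, 376 and 552 TPM. Csf3r, the G-CSF receptor, had 16.3, 22.6 and 45.6 TPM and was the widest of the list. Ngp and Camp were thus far higher in mouse 3 than in mouse 1, whereas Mpo was moderately higher and Ctsg was lower. The primary granule enzymes Elane, at 410, 271 and 736 TPM, and Prtn3, at 485, 346 and 670 TPM, were higher in mouse 3, as Mpo was. Both were named after their values were known.

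The 250 bases before the start of Cebpa and of Cebpb are printed because the pair are the C/EBP members whose promoters RefSeq gives here. Of the 10 factors, 7 had an entry, and Cebpd, Cebpe and Myc had none. Motifs in capitals were searched on both strands: the C/EBP site TTGCNNAA, the E-box CACGTG, the TATA box TATAAA, the RUNX site TGTGGT, the GATA site AGATAA, the GC box GGGCGG and the STAT site TTCNNNGAA. The Cebpa window is chr7:35119043-35119292 and the Cebpb window chr2:167688665-167688914, both on the plus strand of GRCm38.p6.
Cebpa: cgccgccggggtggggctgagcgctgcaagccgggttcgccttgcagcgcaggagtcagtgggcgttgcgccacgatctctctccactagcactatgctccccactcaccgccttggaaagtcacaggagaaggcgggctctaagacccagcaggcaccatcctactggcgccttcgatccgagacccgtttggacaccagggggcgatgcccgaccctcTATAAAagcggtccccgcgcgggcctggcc
Cebpb: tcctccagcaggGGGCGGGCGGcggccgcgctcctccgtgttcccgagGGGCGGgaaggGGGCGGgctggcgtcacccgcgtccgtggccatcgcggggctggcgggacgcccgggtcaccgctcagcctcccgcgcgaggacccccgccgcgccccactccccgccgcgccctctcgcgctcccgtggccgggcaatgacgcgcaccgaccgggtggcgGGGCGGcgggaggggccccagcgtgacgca
Cebpa held a TATA box at positions -30 to -25 from its start, a motif in 12.4% of 32851 promoters of this length, and none of the other letters. Cebpb held 5 GC boxes, 2 of which overlap, where 32.7% of promoters held at least 1, and its window was 81.6% G and C against a median of 52.4%. Neither window held TTGCNNAA, which 9.56% of promoters did. Among the 7 factors with an entry only Gfi1 held it, at positions -143 to -136 of a window with 82 bases in its own exons. A match is a run of letters and was not tested as a binding site.

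Myb and Myc, which keep progenitors dividing, were the most abundant of the factors, and both were highest in mouse 1. Myc (chr15:61985391-61990374, plus strand) had 258, 167 and 160 TPM, so that mice 2 and 3 were close and mouse 1 stood 1.61-fold above the lowest. Myb (chr10:21124935-21160984, minus strand) had 193, 124 and 171 TPM, with mouse 2 the low one, a 1.56-fold range. Under upper-quartile scaling both stayed highest in mouse 1. Neither reached 2-fold. The SD of 0.38 for Myc was 0.042 without mouse 1, and that of 0.33 for Myb was 0.13 without mouse 2.

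The partners of Myc differed in how much they varied. Max, the protein Myc must pair with to bind DNA, was flat at 74.0, 72.7 and 73.2 TPM, so Myc stood at 3.49 times Max in mouse 1, 2.30 times in mouse 2 and 2.19 times in mouse 3. Mycn, a relative of Myc that is expressed in stem cells, had 75.6, 33.3 and 27.7 TPM and shared the order of mice of Myc. Mycl had 68.8, 109 and 78.4 TPM, with mouse 2 the highest, and Mga, a repressor that also pairs with Max, had 80.3, 75.8 and 72.5 TPM. Mxd1 is a rival of Myc for Max that comes up in maturing myeloid cells, and was picked with its values in view. It had 11.6, 17.7 and 24.1 TPM. Its order of mice was that of Cebpe. The ratio of Myc to Mxd1 was 22.3 in mouse 1, 9.44 in mouse 2 and 6.66 in mouse 3.

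Genes that Myc is known to activate mostly peaked in mouse 1. Of 13 such genes, 12 did and 1 peaked in mouse 2, both as deposited and after scaling, beside 48.6% and 35.6% of expressed genes that peaked in mouse 1. None of the 13 differed 2-fold between mice, where 13.8% of expressed genes did. Npm1, a nucleolar protein of ribosome assembly, had 1235, 871 and 984 TPM. Cad, an enzyme of pyrimidine synthesis, had 76.2, 44.8 and 42.8 TPM, the widest of the list, and Ldha, of lactate production, had 524, 444 and 406 TPM.

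Genes known to answer to Myb were given by a list of 6 that includes Myc. Of these, Myc included, 4 were highest in mouse 1, also after scaling, beside 48.6% and 35.6% of expressed genes. Cd34, a surface protein of progenitors, had 202, 141 and 137 TPM, and Gata2, a stem cell and mast cell factor, had 44.3, 16.8 and 16.9 TPM. Both had mice 2 and 3 close together and mouse 1 above them, as Myc did, while Myb itself was nearly as high in mouse 3. The relatives of Myb were lower: Mybl2, a cell cycle gene, had 53.9, 39.2 and 47.1 TPM, and Mybl1 had 4.92, 3.69 and 6.28 TPM.

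Runx1 is needed for blood stem cells to arise, and Gfi1 is a repressor that recruits histone-modifying enzymes. Runx1 (chr16:92601466-92826149, minus strand) had 91.2, 96.3 and 77.5 TPM, a 1.24-fold range that made it the least variable of the factors, and without mouse 3 its SD of 0.16 was 0.055. Its obligate partner Cbfb was flat as well, at 107, 100.3 and 95.0 TPM, which put Runx1 at 0.854, 0.960 and 0.816 times Cbfb. Cbfa2t3, a corepressor of the ETO family, was at 241, 396 and 226 TPM, with mouse 2 the highest. Of the 6 genes of this list 5 reached a mean of 1 TPM, and none of these differed 2-fold, beside 13.8% of expressed genes.

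Gfi1 (chr5:107716657-107726036, minus strand), which is needed for neutrophils to form and represses monocyte genes, had 33.4, 15.8 and 25.3 TPM, lowest in mouse 2. Without mouse 2 its SD of 0.52 was 0.27. Gfi1b, its counterpart in red cells and platelets, had 25.7, 17.3 and 28.9 TPM and was also lowest in mouse 2. Kdm1a, the histone demethylase both recruit, had 75.1, 72.1 and 63.2 TPM, and Hdac1, a deacetylase of the same complex, had 118, 112 and 122 TPM. The corepressors were thus steadier than Gfi1. Genes known to be repressed by Gfi1 were spread over the mice much as expressed genes were: of 7, 3 peaked in mouse 1 (48.6% of expressed genes), 3 in mouse 2 (31.1%) and 1 in mouse 3 (20.3%), with the same counts after scaling. Id2, a helix-loop-helix inhibitor, had 494, 569 and 382 TPM, Meis1, a homeobox factor of progenitors, 56.3, 40.1 and 34 TPM and Egr2, a macrophage factor, 3.15, 15.9 and 11.3 TPM. Egr2 and Id2 were highest in mouse 2, where Gfi1 was lowest, and Meis1 in mouse 1, where Gfi1 was highest.

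Klf4 and Irf4, which act in monocytes and dendritic cells, were both highest in mouse 2. Klf4 (chr4:55527143-55532466, minus strand) had 89.0, 164 and 79.4 TPM, so that mouse 2 stood apart from the others, and without it the SD of 0.56 was 0.12. Irf4 (chr13:30749226-30766976, plus strand) had 3.20, 7.87 and 7.08 TPM, with mouse 1 the low one, and without mouse 1 its SD of 0.59 was 0.094. Klf4 and Irf4 thus shared their highest mouse, but the mouse that stood apart was mouse 2 for Klf4 and mouse 1 for Irf4.

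Relatives of both were among the most abundant factors looked at. Irf8, the master factor of monocytes and of type 1 dendritic cells, had 716, 1256 and 775 TPM, which put Irf4 at less than 1% of its level (0.00448, 0.00627 and 0.00914 times). Irf5 had 347, 544 and 293 TPM. Klf2, a relative of Klf4 in monocytes and lymphocytes, had 314, 641 and 369 TPM, and Klf6 had 265, 380.0 and 255 TPM. All 4 were highest in mouse 2, as Klf4 was, and of the 8 listed IRF genes 5 were, against 31.1% of expressed genes (33.9% after scaling, with the same count). Of the 12 other KLF genes 3 peaked in mouse 2 and 6 in mouse 1, near the 31.1% and 48.6% of expressed genes. After scaling these were 4 and 5, beside 33.9% and 35.6%. Spi1, which encodes PU.1 and is listed as Sfpi1, had 185, 264 and 225 TPM, and stood at 2.92 times Cebpa in mouse 1 and at 6.03 and 6.04 times in mice 2 and 3.

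Dendritic cell markers mostly peaked in mouse 2, where both Klf4 and Irf4 did. Of 8 dendritic cell markers 6 were highest in mouse 2 (31.1% of expressed genes as deposited, and 33.9% after scaling, where the count was again 6). The other 2 peaked in mouse 3. All but Flt3 were lowest in mouse 1, as Irf4 was, whereas Flt3 was lowest in mouse 3, as Klf4 was. The share of expressed genes lowest in mouse 1 was not computed. The 8 markers summed to 574, 1061 and 732 TPM, and none was at 0. Clec9a, a receptor of type 1 dendritic cells, had 184, 415 and 273 TPM, Xcr1, a chemokine receptor of the same cells, 26.1, 75.8 and 56.0 TPM, and Flt3, which progenitors share, 146, 157 and 106 TPM. Monocyte genes, listed as targets of Klf4 and Irf8, did not share that pattern. Of 6 with a mean of at least 1 TPM, 5 peaked in mouse 3, where Klf4 was lowest, and 1 in mouse 2. Of expressed genes, 20.3% peaked in mouse 3, and 30.4% after scaling, where the count was again 5. The 8 listed summed to 469, 549 and 840 TPM. Among these, Ly6c2 had 291, 229 and 559 TPM, Csf1r, the M-CSF receptor, 8.35, 15.6 and 24.8 TPM, and Ccr2, highest in mouse 2, 150.4, 271 and 215 TPM. The B cell list, beside Irf4, summed to 49.4, 91.5 and 126 TPM, mostly Ighm at 32.2, 76.8 and 108 TPM. Of its 5 genes with a mean of at least 1 TPM, 3 peaked in mouse 3 (20.3% of expressed genes) and 2 in mouse 1 (48.6%). The counts were the same after scaling, beside 30.4% and 35.6%. Those highest in mouse 1 were Cd79b, a part of the B cell receptor, at 13.1, 8.94 and 10.1 TPM, and Ebf1, a B cell factor, at 2.01, 1.87 and 1.6 TPM. Ebf1 was named after its values were known. The part of such cells in the Klf4 and Irf4 values was not tested.

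**Figure D4:**
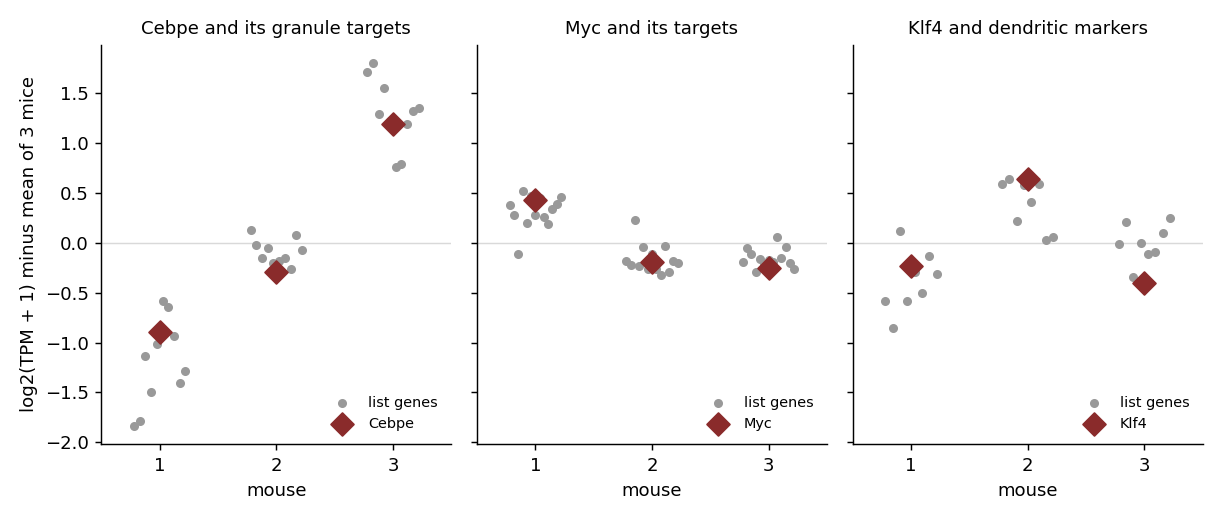
Difference of log2(TPM + 1) from the gene's mean over the 3 mice, for Cebpe, Myc and Klf4 (red diamonds) and the genes of the list set beside each (grey points, spread sideways to show them). All 10 genes of the C/EBPε list peak in mouse 3, 12 of 13 of the Myc list in mouse 1 and 6 of 8 dendritic markers in mouse 2, as deposited and after scaling. The dendritic markers are not a list of Klf4 targets. All of them but Flt3 are lowest in mouse 1, for which no share of expressed genes was computed, whereas Klf4 is lowest in mouse 3.

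The window before the start of Klf4 (chr4:55532476-55532725, minus strand, GRCm38.p6) is shown beside those of the C/EBP genes because, of the promoters given here that lie outside the exons of their own gene, it alone held an E-box, the motif of Myc and Max.
Klf4: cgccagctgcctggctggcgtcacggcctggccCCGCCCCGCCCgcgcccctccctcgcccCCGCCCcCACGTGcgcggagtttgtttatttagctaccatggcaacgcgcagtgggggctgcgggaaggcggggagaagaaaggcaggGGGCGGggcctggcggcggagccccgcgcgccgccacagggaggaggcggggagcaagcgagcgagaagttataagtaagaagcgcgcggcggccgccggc
The E-box, found in 6.02% of promoters, begins at position -182. GC boxes begin at positions -217, -212, -189 and -101, and the first pair share 1 base. No TATA box was found by these letters.

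The factors were also compared by how they differed over the mice. As a measure of likeness, log2(TPM + 1) was centred on each gene's mean and the Euclidean distance over the 3 mice was taken, for 45 pairs. The closest pairs were Cebpb and Myb, at 0.11, Cebpa and Myc, at 0.12, and Gfi1 and Myb, at 0.28. Cebpd and Cebpe were 0.43 apart. The farthest pairs all included Cebpe: 2.03 from Cebpa, 1.97 from Myc and 1.96 from Klf4. Values were not scaled to a common SD, so a gene with a large SD lies far from most others, and Cebpe had the largest, at 1.08. Cebpa and Myc shared their order of mice, highest in mouse 1 and lowest in mouse 3, and Cebpe had the reverse order. With 3 mice these distances describe the libraries and carry no test.

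**Figure D5:**
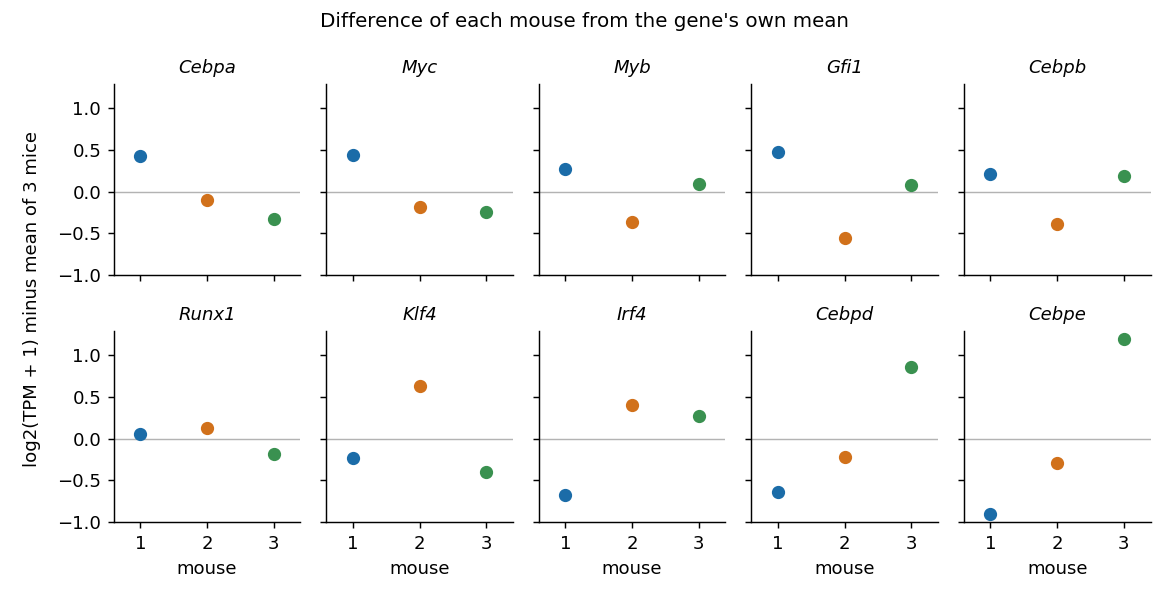
Log2(TPM + 1) of each factor in mouse 1 (blue), mouse 2 (orange) and mouse 3 (green), less the mean of the 3 mice. Cebpa and Myc are highest in mouse 1, Myb, Gfi1 and Cebpb are lowest in mouse 2, Klf4 is highest in mouse 2, Irf4 is lowest in mouse 1, Cebpd and Cebpe are highest in mouse 3, and Runx1 stays near 0.

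Among the 15180 other expressed genes, those most like Cebpe by this distance were Chi3l3, at 0.048, C3, at 0.067, and Inhba, at 0.10. Chi3l3, a secreted chitinase-like protein of neutrophil progenitors and macrophages that is also in the C/EBPε list, had 139, 222 and 610 TPM. C3, the central complement protein, had 23.4, 33.8 and 98.5 TPM, and Inhba, an activin subunit, had 1.23, 2.68 and 8.41 TPM. The genes most like Myc were Gm1968, Aldh6a1 and 9330182L06Rik, at distances of 0.0046, 0.0063 and 0.0094, all at a mean level under 7 TPM.

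Exons of several factors overlap other genes in GENCODE M21, and the labels name a stranded kit but not how strand entered the quantification, so those values are less certain. On the opposite strand, Tmem189 shares 312 bases with Cebpb and had 55.9, 68.9 and 48.1 TPM, above Cebpb in every mouse. A430072P03Rik shares 101 bases with Gfi1 and had 3.98, 1.36 and 3.41 TPM, lowest in mouse 2 as Gfi1 was. Spidr shares 562 bases with Cebpd, Gm26577 559 bases with Myb, Gm26626 106 bases with Runx1 and Gm45091 51 bases with Cebpa, and these 4 were not analysed here. Cebpe, Klf4, Irf4 and Myc overlap no other annotated exon.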

How the data were processed

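RNA of c-Kit-enriched spleen cells from 3 leukemic mice, 1 group, was analysed. Per the submitters' processing notes, kallisto and mm10 were used, with no version, annotation or step given. The authors deposited 1 table whose name says log2 FPKM. Its values are linear, never below 0 and sum alike in each library, so the deposited values were read as TPM. Rows without a symbol (795) or with a date in place of one (27) were left out, which held 0.53% to 0.61% and 0.18% to 0.20% of each library, and 90 symbols on several rows were summed. Depth cannot be had from TPM, so no counting interval is given. Another 3 per-sample columns were not used. The labels name both ribosome depletion and an mRNA kit, so which RNA was selected is unclear.

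Levels are means with SDs, and folds are on TPM. Spread is on log2(TPM + 1), with a pseudocount of 1. A gene is expressed at a mean of at least 1 TPM. With 1 group there is no test between groups, and no p-value is given. Alternatives were a common upper quartile, a pseudocount of 0.1, other detection levels, each mouse left out, the highest row of a repeated symbol and ranking by the median. The scripts were tested on simulated data. The 10 genes, the 22 other lists (167 genes, 3 symbols unmatched, older symbols matched through RefSeq) and the rules were chosen with earlier results of these data known. Named genes are the 10 factors, partners of theirs fixed by role, the 2 highest and the widest gene of each list, and the 3 genes nearest to the widest and to the most abundant factor. Chi3l3 is the table's older symbol for Chil3. Values were computed in Python 3.11.15 with pandas 2.3.3 and numpy 2.4.6, and drawn with matplotlib 3.10.9.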

Additional observations from a re-analysis of the deposited data

How the results depend on the processing

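Of the 10 factors, 5 differed at least 2-fold between some pair of mice. This count was 3 after upper-quartile scaling, 5 with folds on TPM + 1, and between 2 (without mouse 3) and 3 when a mouse was left out, which leaves fewer pairs. Ranked by median TPM, 3 factors kept their place. When a mouse was left out, 7 to 8 did. The background share of 13.8% of genes past 2-fold was 8.57% on TPM + 1, 7.64% at a mean of at least 5 TPM and 22% over all genes above 0 in every mouse. The median level of the factors stayed between 5.07 and 5.27, and their median SD between 0.37 and 0.47, under all 6 alternatives tried. All 60 recomputed levels of single factors moved by less than their spread, and 50 of 60 SDs stayed within 1.5 times, the other 10 being 1 for each factor with a mouse left out. Of the 167 list genes, 153 had a mean of at least 1 TPM, 165 one of at least 0.1 and 134 one of at least 5. Of 110 recomputed list medians 4 moved by more than their spread, all with a pseudocount of 0.1: B cell, T and NK cell, mast cell and basophil, and plasma cell markers. The upper-quartile factors moved the mice by -0.08, 0.01 and 0.06 log2 units. Scaled counts for the C/EBPε, Myc and dendritic lists were alternatives added after seeing the data. With all mice in a single group, pairing has no meaning: No paired analysis was possible because no second group was analysed. Since TPM hold no depth, counting error in the low values of Irf4 and Trib2 is unknown.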

Other observations

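Other regulators in the lists also differed among the 3 leukemias, and are given as values. Irf7, a factor of the interferon response, had 12.8, 60.0 and 64.1 TPM in mice 1, 2 and 3. With an SD of 1.27 log2 units it varied most among the IRF genes listed. Mouse 1 was the low one, as it was for Irf4. Klf9, a stress and hormone-responsive member of the KLF family, ran the other way, with 32.0, 9.0 and 9.41 TPM. So did the mast cell and basophil genes Cpa3, a carboxypeptidase, at 51.9, 14.6 and 13.2 TPM, and Mcpt8, a protease, at 31.4, 12.5 and 17.3 TPM, while Tpsb2, named for its zeros, was listed at 0 in all 3 mice. Of the 4 genes of that list with a mean of at least 1 TPM, 3 were highest in mouse 1, beside 48.6% of expressed genes (35.6% after scaling, with the same count). The other, Hdc, which makes histamine and was named for going the other way, had 15.6, 13.9 and 28 TPM, highest in mouse 3.

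Ermap, an erythroid membrane protein, had 29.7, 24.7 and 62.0 TPM and was highest in mouse 3. Mouse 3 was also the mouse in which Cebpe, Cebpd and the secondary granule genes were highest.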
